A study of Saccharomyces cerevisiae with 12 samples.

Results

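The shift of budding yeast, Saccharomyces cerevisiae, to 37 °C was followed in strains whose PRP43 gene is intact. PRP43 encodes a DEAH-box RNA helicase that takes apart the spliceosome and helps to assemble ribosomes. Of the 12 libraries of the series, 6 were used: 3 from 37 °C (wild type, set1Δ and set2Δ) and 3 from 25 °C (the same genotypes), which form 3 pairs by genotype. The 6 libraries that carry the prp43-1 allele were left out. All strains were haploid derivatives of BY4741, labelled MATa his3Δ1 leu2Δ0 met15Δ0 ura3Δ0, with no further change (wild type), with SET1 deleted (set1Δ) or with SET2 deleted (set2Δ). Set1 and Set2 are histone methyltransferases that act on transcribed genes. Cultures were grown in YPD medium, and the labels give 25 °C for the growth of every culture and do not give the length of the shift to 37 °C. Each genotype was sequenced 1 time at each temperature. Spread could therefore be taken only from the differences between the 3 genotype pairs, and a response that differs between genotypes counts as spread. In the edgeR tests this spread was estimated in part over all tested forms or hosts together, SCR1 included. Their p-values and SEs thus do not rest on the 3 pairs of a single form or host alone.

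The measurement was a count of reads across each of 6195 splice forms that the authors list as outside the annotation. A form is a gap in the alignment of reads, given by its first and last skipped base and its host gene. Yeast introns begin with a 5′ splice site close to GTATGT, hold the branch-point sequence TACTAAC and end at a 3′ splice site AG, and the spliceosome usually takes the first suitable AG after the branch point. RNA folding between the branch point and the AG can hide one AG and expose another, and folds of this kind can loosen with heat. A shift to high temperature is known to induce chaperones and cell wall genes and to lower the expression of ribosomal protein genes for a time. The table does not hold the annotated introns or the RNA level of the host genes, so more RNA of a host and more frequent use of a splice site cannot be told apart in any result.

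Reads on SCR1, which encodes the RNA component of signal recognition particle, made up 74.5%, 85.4% and 83.4% of listed reads in wild type, set1Δ and set2Δ at 37 °C, against 87.5%, 78.9% and 80.8% at 25 °C. Levels are therefore given as reads per 100,000 reads on named hosts other than SCR1. Those hosts had 54616, 53721 and 39060 reads at 37 °C, against 50392, 47175 and 52726 reads at 25 °C, again in the order wild type, set1Δ and set2Δ, which holds for every set of 3 values per temperature that follows. These hosts carried 5906 forms, 3524 of them with at least 1 read and 867 with at least 10 reads over the 6 libraries. No form of SET1 or SET2 had a read, so these forms do not check the deletions. The mating-type labels could be checked in part: genes that only MATα cells express had 0, 16 and 2 reads at 37 °C, against 0, 61 and 38 reads at 25 °C, while genes specific to MATa cells had 3, 0 and 0 reads at 37 °C, against 1, 0 and 0 reads at 25 °C. The set1Δ and set2Δ libraries thus went against their MATa label at both temperatures and the wild type libraries did not. Scaled to 100,000 reads, the genes of MATα cells had 29.8 at 37 °C against 129 at 25 °C in set1Δ and 5.12 at 37 °C against 72.1 at 25 °C in set2Δ. Their part in the results was not tested, and results without each pair are given where they change a call.

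The sequences that the main results turn on are shown from the R64 reference genome (RefSeq), 5′ to 3′ on the strand of the host. In the first sequence, the whole 98-nt form of RPL30 at chrVII:439382-439479 on the plus strand, capitals mark the first 6 bases and the final AG. This stretch lies inside the second exon, downstream of the annotated intron at chrVII:439094-439323.
RPL30 98-nt form: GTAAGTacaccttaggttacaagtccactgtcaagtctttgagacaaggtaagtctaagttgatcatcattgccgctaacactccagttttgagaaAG

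The next set shows 3′ ends of forms that start at an annotated 5′ site and end at another AG. Capitals mark the last TACTAAC in the stretch, where there is one, the AG used by the form and, where the stretch reaches it, the annotated AG. In YSC84 (chrVIII:138237-138296, minus strand) and ATG44 (chrIX:47705-47764, plus strand) the form ends 4 bases after the annotated site, and in ACT1 (chrVI:54376-54435, minus strand) it ends 2 bases after it. In ECM33 (chrII:393448-393510, plus strand) and APE2 (chrXI:155577-155654, plus strand) the first of the AG pairs after TACTAAC in capitals is the one used by the form, and the annotated site lies 3 and 18 bases further on. In MAF1 (chrIV:457476-457535, minus strand) the form ends 542 bases after the annotated site, inside the second exon.
YSC84 172-nt form, end: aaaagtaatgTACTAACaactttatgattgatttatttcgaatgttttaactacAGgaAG
ATG44 66-nt form, end: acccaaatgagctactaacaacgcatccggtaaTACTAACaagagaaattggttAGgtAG
ACT1 311-nt form, end: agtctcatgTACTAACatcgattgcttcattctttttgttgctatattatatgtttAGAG
ECM33 327-nt form, end: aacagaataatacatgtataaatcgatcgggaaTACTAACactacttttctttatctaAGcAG
APE2 365-nt form, end: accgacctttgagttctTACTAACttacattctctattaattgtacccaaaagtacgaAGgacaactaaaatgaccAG
MAF1 622-nt form, end: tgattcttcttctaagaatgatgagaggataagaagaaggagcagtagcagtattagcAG

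Across all forms, 9 of 393 tested forms (2.29%) passed the edgeR quasi-likelihood test at an adjusted p of 0.05, with 4 (1.02%) higher at 37 °C and 5 (1.27%) lower at 37 °C. Of the 393 forms, 153 belong to SCR1. Without SCR1 in the fit, 20 of 240 forms passed, 12 higher and 8 lower. At an unadjusted p of 0.05, 66 of the 393 forms passed.

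The largest difference was the 98-nt skip in the second exon of RPL30, which encodes a protein of the large ribosomal subunit that also binds its own transcript and holds back its splicing. It had 48, 35 and 26 reads at 37 °C, against 0, 0 and 1 reads at 25 °C. The single read at 25 °C came from set2Δ, and each library at 37 °C was above each library at 25 °C. The log2 fold change was 6.33 ± 0.89 (SE, 3 pairs), with an adjusted p of 8.07e-10. The skip begins with GTAAGT and ends with AAG but holds no TACTAAC. A 94-nt skip from the same 5′ site to an AG 4 bases earlier had 6, 2 and 3 reads at 37 °C, against 0, 0 and 1 reads at 25 °C. In contrast to these exonic skips, forms that end at the annotated 3′ site of RPL30 had few reads at 37 °C. The 226-nt form had 1, 1 and 1 reads at 37 °C, against 5, 0 and 2 reads at 25 °C, and the 224-nt form had 1, 0 and 0 reads at 37 °C, against 8, 2 and 8 reads at 25 °C. Summed over all its forms, RPL30 had 110, 72.6 and 81.9 reads per 100,000 at 37 °C, against 31.8, 6.36 and 32.2 at 25 °C, a difference that did not pass the test over hosts (adjusted p = 0.111, edgeR).

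YSC84 encodes an actin-binding protein of endocytic sites. Its 172-nt form at chrVIII:138237-138408, which uses the AG 4 bases after the annotated one, had 25, 13 and 8 reads at 37 °C, against 2, 1 and 3 reads at 25 °C. The groups did not overlap, and wild type at 37 °C was highest. The log2 fold change was 2.82 ± 0.75 (SE, 3 pairs; edgeR adjusted p = 0.0128). This call was lost when any 1 genotype pair was left out, with adjusted p-values of 0.25 without wild type, 0.102 without set1Δ and 0.118 without set2Δ.

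The remaining forms that rose were a 60-nt and a 42-nt skip within the coding region of SED1, a stress-induced glycoprotein anchored in the cell wall. The 60-nt skip at chrIV:601434-601493 had 21, 49 and 22 reads at 37 °C, against 3, 13 and 6 reads at 25 °C (log2 fold change 2.14 ± 0.59, adjusted p = 0.0176). The 42-nt skip at chrIV:601097-601138 had 26, 40 and 18 reads at 37 °C, against 4, 8 and 9 reads at 25 °C (log2 fold change 1.999 ± 0.59, adjusted p = 0.0343). GT-AG ends are lacking in both, and the skipped stretch is flanked by a repeat of 7 and 4 bases in these forms. The table lists each position in 2 rows, and the other row had 8, 3 and 4 reads at 37 °C, against 5, 6 and 5 reads at 25 °C for the 60-nt position, and 16, 26 and 18 reads at 37 °C, against 14, 18 and 11 reads at 25 °C for the 42-nt position. With the rows of a position summed, an alternative chosen after the data were seen, both calls were lost. The 60-nt position then had 29, 52 and 26 reads at 37 °C, against 8, 19 and 11 reads at 25 °C (log2 fold change 1.53 ± 0.53, edgeR adjusted p = 0.0879). The 42-nt position had 42, 66 and 36 reads at 37 °C, against 18, 26 and 20 reads at 25 °C (log2 fold change 1.18 ± 0.51, edgeR adjusted p = 0.185). The 60-nt call was lost without wild type (adjusted p = 0.0862, edgeR) and without set2Δ (0.35), and the 42-nt call without any 1 pair (0.106 to 0.35). With such rows summed, 7 forms passed in all, and the 2 higher at 37 °C were those of RPL30 and YSC84.

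**Figure D1:**
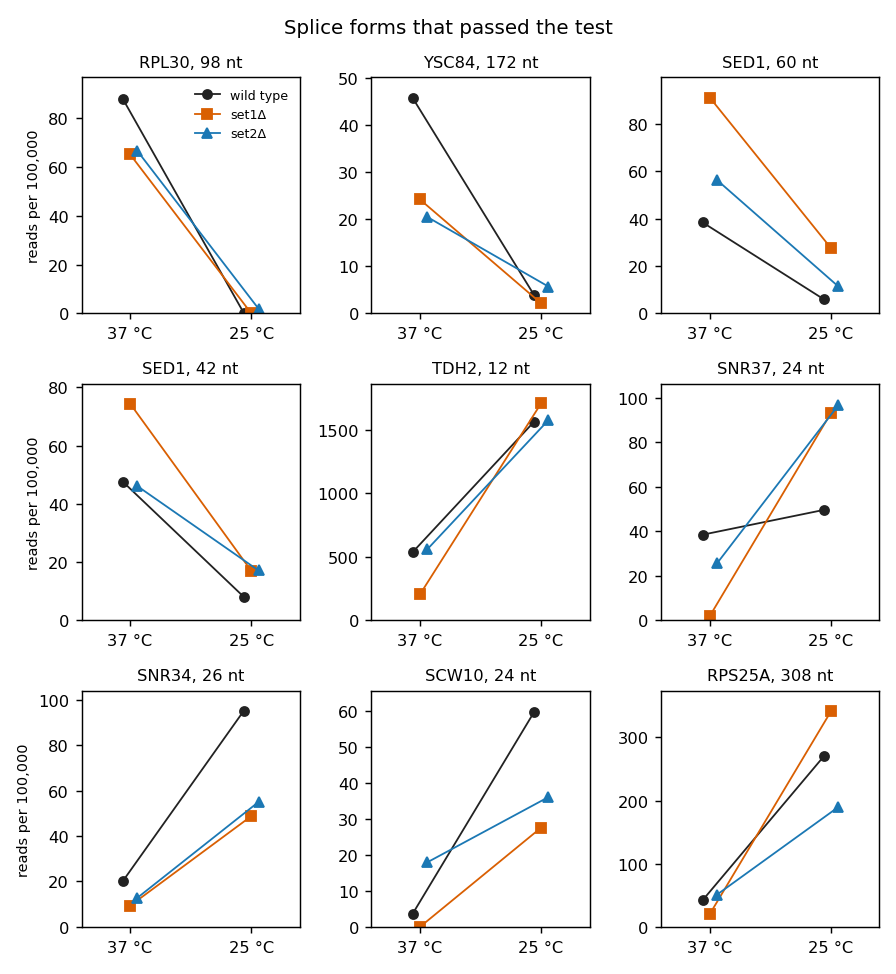
Reads per 100,000 reads on hosts other than SCR1 (vertical axis, linear from 0) at 37 °C and 25 °C for the 9 splice forms that passed the test, 1 panel per form with its skipped length. Points are single libraries, lines join the libraries of a genotype. The RPL30 form sits between 65.2 and 87.9 at 37 °C and at most 1.90 at 25 °C, and the 5 lower forms point the same way in all 3 pairs.

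Of the forms that fell, the one of RPS25A lay in the 5′ leader of its host. RPS25A encodes a protein of the small ribosomal subunit, and its 308-nt form at chrVII:534474-534781 on the minus strand lies 16 to 323 bases upstream of the coding region, begins with GTATCT, holds TACTAAC and ends with TAG. Its first 20 and last 30 bases are shown, with the 5′ site and the final AG in capitals.
RPS25A 308-nt form, start: GTATCTataaatttgaaacc
RPS25A 308-nt form, end: agtatgtttttactttttactttatcatAG

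It had 23, 11 and 20 reads at 37 °C, against 136, 161 and 100 reads at 25 °C. No library at 37 °C came near the lowest library at 25 °C, and the log2 fold change was −2.83 ± 0.56 (SE, 3 pairs; edgeR adjusted p = 8.24e-05). The RPL30 form passed under 10 of 11 other settings and the RPS25A form under 9 of 11, more than any other of the 9 forms.

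The TDH2 form was a 12-nt skip in the coding region of a glyceraldehyde-3-phosphate dehydrogenase gene at chrX:454406-454417 on the minus strand. The skipped bases are in capitals between 12 bases on either side.
TDH2 12-nt skip with flanks: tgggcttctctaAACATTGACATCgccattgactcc

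It had 293, 109 and 218 reads at 37 °C, against 788, 807 and 832 reads at 25 °C. All values at 37 °C were below all values at 25 °C, most of all in set1Δ, and the log2 fold change was −2.02 ± 0.49 (adjusted p = 0.00512, edgeR). TDH2 has similar copies in TDH1 and TDH3, between which the authors' alignment could divide reads. TDH3 has 12-nt skips of its own, among them those at chrVII:882981-882992 with 66113 reads and at chrVII:883541-883552 with 6397 reads over the 6 libraries. Whether reads of such skips were placed on the right copy was not tested. The call was lost without the set1Δ pair (adjusted p = 0.257) and without the set2Δ pair (adjusted p = 0.35).

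The other forms that fell were skips of 24 to 26 nt without GT-AG ends. In SCW10, a cell wall protein related to glucanases, a 24-nt skip had 2, 0 and 7 reads at 37 °C, against 30, 13 and 19 reads at 25 °C (log2 fold change −2.79 ± 0.70, adjusted p = 0.00794). In SNR34, a small nucleolar RNA that guides pseudouridylation of ribosomal RNA, a 26-nt skip had 11, 5 and 5 reads at 37 °C, against 48, 23 and 29 reads at 25 °C (log2 fold change −2.22 ± 0.59, adjusted p = 0.0124). In SNR37, of the same class of guides, a 24-nt skip had 21, 1 and 10 reads at 37 °C, against 25, 44 and 51 reads at 25 °C (log2 fold change −2.02 ± 0.57, adjusted p = 0.0205). Scaled to 100,000 reads, every library at 37 °C was below every library at 25 °C for all 3 skips, with SNR37 in wild type the closest pair. SCW10 lost its call without wild type (adjusted p = 0.216) and without set1Δ (0.0775). SNR34 lost it without wild type (0.123) and without set2Δ (0.35). For SNR37 it was lost without set2Δ (0.35) and without set1Δ (0.307), where the log2 fold change was −1.11. Just outside the threshold lay a 54-nt skip of HSP150 (adjusted p = 0.0578) and a 325-nt form of RPP1B, an acidic stalk protein of the ribosome, that ends 24 bases after its annotated 3′ site and had 4, 3 and 1 reads at 37 °C, against 10, 13 and 16 reads at 25 °C (adjusted p = 0.0736, edgeR).

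Forms with GT-AG ends numbered 495 with at least 1 read on hosts other than SCR1. They took 4.30%, 2.83% and 4.16% of the reads on coding hosts at 37 °C, against 4.01%, 4.09% and 4.11% at 25 °C. Only the set1Δ library at 37 °C stood apart, and the mean log2 difference over the 3 pairs was −0.14 ± 0.34 (SD), with an exact two-sided sign-flip p of 1 where 0.25 is the smallest possible. The total therefore showed no difference beyond the spread between genotypes. Fewer GT-AG forms were seen in the set1Δ library than in the others at 37 °C, with 267, 163 and 243 forms, against 124, 163 and 150 forms at 25 °C.

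Within the GT-AG forms, those that join an annotated 5′ site to an AG downstream of the annotated 3′ site had more reads at 37 °C in every genotype. This class was singled out after its values were seen. It comprised 144 forms in 95 host genes, 113 of them with TACTAAC, and had 398, 219 and 171 reads at 37 °C, against 96, 118 and 97 reads at 25 °C. As a share of reads on coding hosts this was 0.923%, 0.557% and 0.555% at 37 °C, against 0.294%, 0.336% and 0.266% at 25 °C. The Wilson 95% intervals did not overlap between temperatures in any genotype, with 0.488% to 0.635% in set1Δ at 37 °C and 0.281% to 0.403% in set1Δ at 25 °C lying closest. These intervals cover counting error only. Averaged over the 3 pairs, the log2 ratio was 1.15 with an SD of 0.47, that is 2.21-fold, and the exact two-sided sign-flip p was 0.25, the smallest that 3 pairs allow (0.625 adjusted over 5 tests). Reads were spread over many hosts: the most-read form of the class held 5.46% of them, and without the 3 most-read forms the reads were 331, 185 and 142 at 37 °C, against 87, 103 and 85 at 25 °C.

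**Figure D2:**
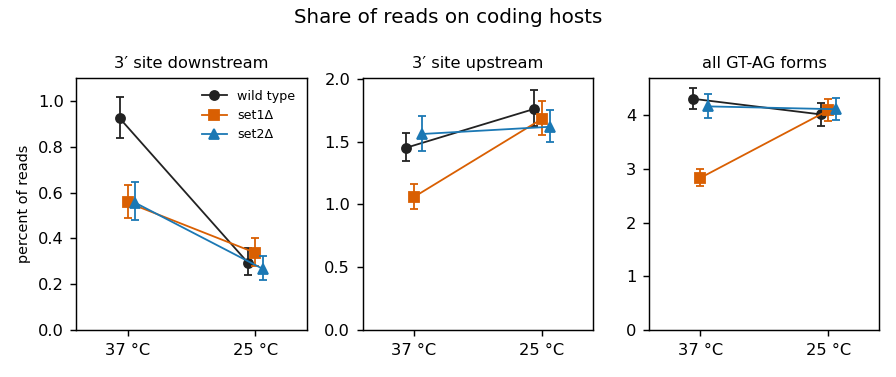
Percent of reads on coding hosts (vertical axis, linear from 0) at 37 °C and 25 °C for GT-AG forms with the 3′ site downstream of the annotated one, for those with it upstream, and for all GT-AG forms. Points are single libraries, bars are Wilson 95% intervals for counting error and lines join a genotype. The downstream class lies at 0.555% or more at 37 °C and at 0.336% or less at 25 °C, while the total overlaps between temperatures.

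By contrast, forms whose AG lies upstream of the annotated site had 626, 417 and 481 reads at 37 °C, against 575, 590 and 591 reads at 25 °C. Their share of reads on coding hosts was 1.45%, 1.06% and 1.56% at 37 °C, against 1.76%, 1.68% and 1.62% at 25 °C, an average log2 ratio of −0.33 with an SD of 0.31 over the 3 pairs and an exact sign-flip p of 0.25. A single form, that of ECM33, held 48.4% of these reads. Without the 3 most-read forms the remaining upstream forms had 238, 88 and 112 reads at 37 °C, against 37, 59 and 71 reads at 25 °C. Relative to reads on coding hosts, these remaining forms were higher at 37 °C in every genotype, as the downstream class was. The lower total at 37 °C, and with it the contrast to the downstream class, thus rested on the most-read upstream forms.

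The distance from the annotated site divided the reads further. Forms ending 1 to 10 bases downstream had 408, 203 and 201 reads per 100,000 reads on coding hosts at 37 °C, against 67.4, 111 and 68.5 at 25 °C. Those ending 11 to 30 bases downstream had 230, 142 and 185 at 37 °C, against 73.5, 108 and 115 at 25 °C. At 31 to 100 bases the values were 109, 63.5 and 68.2 at 37 °C, against 42.9, 51.3 and 16.4 at 25 °C, and beyond 100 bases they were 176, 147 and 100.6 at 37 °C, against 110, 65.6 and 65.8 at 25 °C. In each of these 4 ranges every genotype was higher at 37 °C, although in set1Δ the 31 to 100 range held only 25 reads at 37 °C and 18 reads at 25 °C. Upstream of the annotated site the ranges differed. Forms ending 1 to 10 bases before it had 543, 524 and 705 at 37 °C, against 1213, 818 and 929 at 25 °C, lower in every genotype. Those 11 to 30 bases before it had 613, 318 and 549 at 37 °C, against 352, 530 and 342 at 25 °C, and set1Δ alone was lower at 37 °C. At 31 to 100 bases before it the values were 223, 155 and 256 at 37 °C, against 172, 268 and 301 at 25 °C, with wild type alone higher at 37 °C, and further upstream they were 74.2, 63.5 and 51.9 at 37 °C, against 24.5, 65.6 and 46.6 at 25 °C, with set1Δ alone lower.

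**Figure D3:**
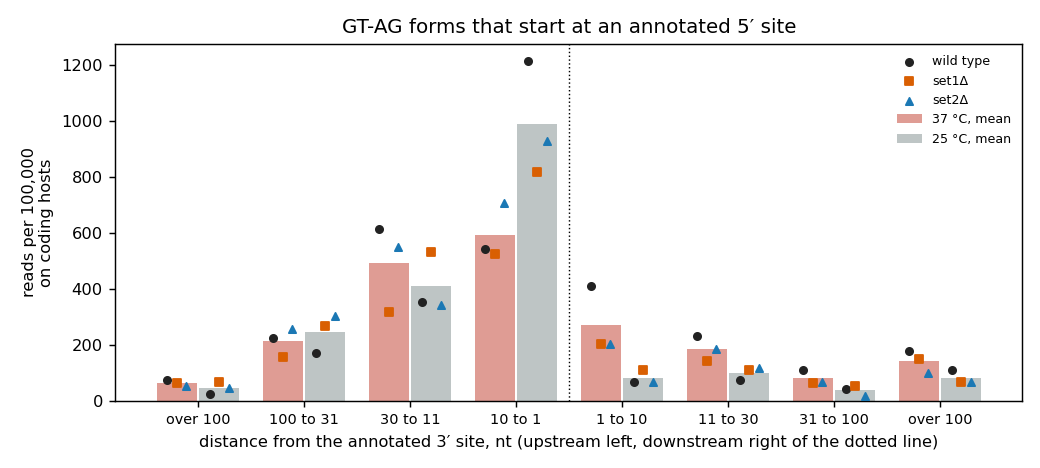
Reads per 100,000 reads on coding hosts (vertical axis, linear from 0) on GT-AG forms that start at an annotated 5′ site, by the distance in nt of their 3′ site from the annotated one. Bars are means over the 3 genotypes at each temperature and points are single libraries. In all 4 ranges to the right of the dotted line the mean is higher at 37 °C. To the left of it the mean is lower at 37 °C at 10 to 1 and 100 to 31 nt upstream. It is higher at 37 °C at 30 to 11 and over 100 nt upstream. Most reads at 10 to 1 nt upstream are those of the 327-nt ECM33 form.

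Among single forms, 236 of 3524 forms with a read (6.70%) were higher at 37 °C in all 3 pairs and 178 (5.05%) lower. Among forms with at least 10 reads these were 190 of 867 (21.9%) and 140 (16.1%). Of the 105 GT-AG forms with at least 10 reads, 35 were higher at 37 °C in all pairs and 7 lower, and of the 38 forms with a downstream 3′ site and 10 reads, 18 were higher in all pairs and 1, that of RPP1B, was lower. Of the 14 forms with an upstream 3′ site and 10 reads, 4 were higher in all pairs and 1 was lower. Forms without GT-AG ends stood at 155 and 133 of 762. These counts describe the forms and were not tested against each other.

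A set of forms had reads in all 3 libraries of a temperature and in none of the other. There were 45 such forms at 37 °C (1.28% of 3524) and 24 at 25 °C (0.681%). With GT-AG ends they were 20 at 37 °C and 2 at 25 °C, and without GT-AG ends 25 at 37 °C and 22 at 25 °C. The most-read was the 622-nt form of MAF1, a repressor of RNA polymerase III. It begins at the annotated 5′ site, passes the annotated intron at chrIV:458018-458097 and ends in the second exon at chrIV:457476. It had 22, 9 and 9 reads at 37 °C, against 0, 0 and 0 reads at 25 °C. With 3 reads over the 3 libraries at 25 °C taken as the limit that a count of 0 allows, this is 13.6-fold. Such values only describe these forms, which were picked for their 0 reads at 25 °C. They pool reads over genotypes and do not cover the spread between libraries or the counting error at 37 °C.

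Several genes with few reads showed the same layout. In PUS7, a pseudouridine synthase with no annotated intron, a 340-nt form with TACTAAC had 14, 9 and 2 reads at 37 °C, against 0, 0 and 0 at 25 °C (8.50-fold by the same limit). It ends at chrXV:791676, and its last bases are shown with TACTAAC and the final AG in capitals.
PUS7 340-nt form, end: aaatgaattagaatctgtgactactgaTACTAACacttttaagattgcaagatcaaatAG

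A 323-nt PUS7 form from the same 5′ site had 6, 1 and 5 reads at 37 °C, against 0, 0 and 0 at 25 °C, while the 349-nt form had 0, 2 and 1 reads at 37 °C, against 4, 0 and 1 at 25 °C. ACT1, the actin gene, had 12, 3 and 1 reads at 37 °C on the form ending 2 bases after the annotated site, against 0, 0 and 0 at 25 °C (5.44-fold by the same limit, with most reads from wild type). RAD14, a nucleotide excision repair factor, had 8, 1 and 6 reads on its 95-nt form at 37 °C, against 0, 0 and 0 at 25 °C. CNB1, the regulatory subunit of calcineurin, had 4, 6 and 2 reads on its 83-nt form at 37 °C, against 0, 0 and 0 at 25 °C.

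The most-read GT-AG forms with TACTAAC mostly did not pass the test. The 327-nt form of ECM33, a wall-anchored protein needed for wall integrity, ends 3 bases before the annotated site and had 205, 175 and 206 reads at 37 °C, against 392, 278 and 332 reads at 25 °C. The groups did not overlap in reads, yet the log2 fold change of −0.72 ± 0.47 was within the spread allowed by the fit (adjusted p = 0.483, edgeR). A 69-nt form of RPS22B, a small-subunit ribosomal protein gene, starts inside the annotated intron and ends at its annotated 3′ site, and had 63, 65 and 81 reads at 37 °C, against 138, 154 and 327 reads at 25 °C (log2 fold change −1.42 ± 0.49, adjusted p = 0.0913). It passed under 5 of 11 other settings. Its whole sequence, chrXII:856989-857057 on the plus strand, is shown with the 5′ site, TACTAAC and the final AG in capitals.
RPS22B 69-nt form: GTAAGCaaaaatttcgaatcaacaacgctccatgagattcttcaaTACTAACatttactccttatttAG

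APE2, an aminopeptidase gene whose 3′ site choice is known to follow the folding of its intron, had 2 forms in this group. The 365-nt form, 18 bases before the annotated site, had 116, 103 and 113 reads at 37 °C, against 99, 167 and 91 reads at 25 °C, with overlapping temperatures and a log2 fold change of −0.01 ± 0.49 (adjusted p = 0.989, edgeR). The 358-nt form, which ends 7 bases earlier, had 38, 5 and 14 reads at 37 °C, against 7, 2 and 5 reads at 25 °C and was higher at 37 °C in each genotype, but had too few reads in too few libraries for the test.

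A further group of well-read forms went in different directions in different genotypes. URA2, the first enzyme of pyrimidine synthesis, had 67, 16 and 63 reads on a 340-nt form at 37 °C, against 11, 39 and 42 reads at 25 °C. RPS22B had 63, 5 and 41 reads on a 550-nt form at 37 °C, against 28, 51 and 44 reads at 25 °C. SEC14, a phosphatidylinositol transfer protein, had 34, 0 and 14 reads on its 127-nt form at 37 °C, against 8, 7 and 11 reads at 25 °C. In all 3 genes set1Δ had fewer reads at 37 °C than at 25 °C while wild type had more. RPS10B, a small-subunit ribosomal protein, had 67, 51 and 50 reads on its 379-nt form at 37 °C, against 47, 86 and 97 reads at 25 °C, with wild type alone higher at 37 °C. The edgeR adjusted p-values of these 4 forms lay between 0.581 and 0.784.

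The last 3 of the most-read forms had lower counts. ATG44, a factor of mitochondrial fission in mitophagy, had 22, 14 and 9 reads on its 66-nt form at 37 °C, against 5, 5 and 5 reads at 25 °C (log2 fold change 1.53 ± 0.65, adjusted p = 0.186, edgeR). DTD1, which removes D-amino acids from tRNA, had 20, 7 and 12 reads on its 97-nt form at 37 °C, against 2, 9 and 4 reads at 25 °C. VPS75, a histone chaperone, had 15, 24 and 6 reads on its 87-nt form, 8 bases before the annotated site, at 37 °C, against 1, 6 and 5 reads at 25 °C. Scaled to 100,000 reads, the libraries of the ATG44 and VPS75 forms were separated by temperature and those of DTD1 overlapped.

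Summed over all forms of a host, 5 of 97 tested hosts (5.15%) passed the test, 3 higher (3.09%) and 2 lower (2.06%), and 24 had an unadjusted p under 0.05. The 3 higher hosts were SED1, HSP150 and POR1, the 2 lower hosts TDH2 and RPS25A. All 5 calls also held with TMM factors and under DESeq2, and none held when library sizes included the reads on SCR1. Without a filter on low counts SED1 (adjusted p = 0.147, edgeR), HSP150 (0.0753) and POR1 (0.175) lost the call, and without the genotype block HSP150 (0.0532) and POR1 (0.108) did. POR1 also lost it with SCR1 left out of the fit (adjusted p = 0.0618).

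SED1 had 8906, 10084 and 10563 reads per 100,000 at 37 °C, against 4278, 5620 and 4791 at 25 °C. The temperatures were separated in every genotype, with a log2 fold change of 1.01 ± 0.21 (SE, 3 pairs; edgeR adjusted p = 0.0474), and 48 of its 51 tested forms had a positive fold change. HSP150, a heat-inducible secreted protein of the PIR family, which is linked to wall glucan, had 1576, 1776 and 1349 reads per 100,000 at 37 °C, against 756, 863 and 544 at 25 °C (log2 fold change 1.14 ± 0.21, adjusted p = 0.0427), and 16 of its 17 tested forms had a positive fold change. Because forms of a host share its RNA, these forms are not independent. POR1, the porin of the outer mitochondrial membrane, had 734, 1662 and 1178 reads per 100,000 at 37 °C, against 403, 784 and 514 at 25 °C (log2 fold change 1.05 ± 0.22, adjusted p = 0.0474). A single 33-nt skip without GT-AG ends, flanked by a direct repeat of 6 bases, carried most POR1 reads, with 390, 885 and 445 reads at 37 °C, against 196, 363 and 269 at 25 °C. All 3 higher hosts lost the call when any 1 genotype pair was left out, with adjusted p-values between 0.0805 and 0.278.

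Among the hosts that fell, TDH2 had 540, 207 and 558 reads per 100,000 at 37 °C, against 1572, 1725 and 1593 at 25 °C (log2 fold change −2.02 ± 0.37, adjusted p = 0.0427, edgeR), almost wholly from the 12-nt skip. RPS25A had 42.1, 20.5 and 53.8 at 37 °C, against 274, 341 and 193 at 25 °C (log2 fold change −2.83 ± 0.51, adjusted p = 0.0427), almost wholly from the 308-nt skip in the leader. Without wild type neither passed (adjusted p = 0.284 for TDH2 and 0.309 for RPS25A, edgeR), and without set1Δ neither did (0.0805 for both). The paralogs of TDH2 gave other values. TDH1 had 428, 395 and 466 reads per 100,000 at 37 °C, against 274, 237 and 288 at 25 °C, higher in each genotype but not past the threshold (log2 fold change 0.69 ± 0.26, adjusted p = 0.146). TDH3, the most-read glycolytic host, had 29120, 25061 and 23305 at 37 °C, against 19787, 27275 and 25837 at 25 °C, with wild type alone higher at 37 °C.

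**Figure D4:**
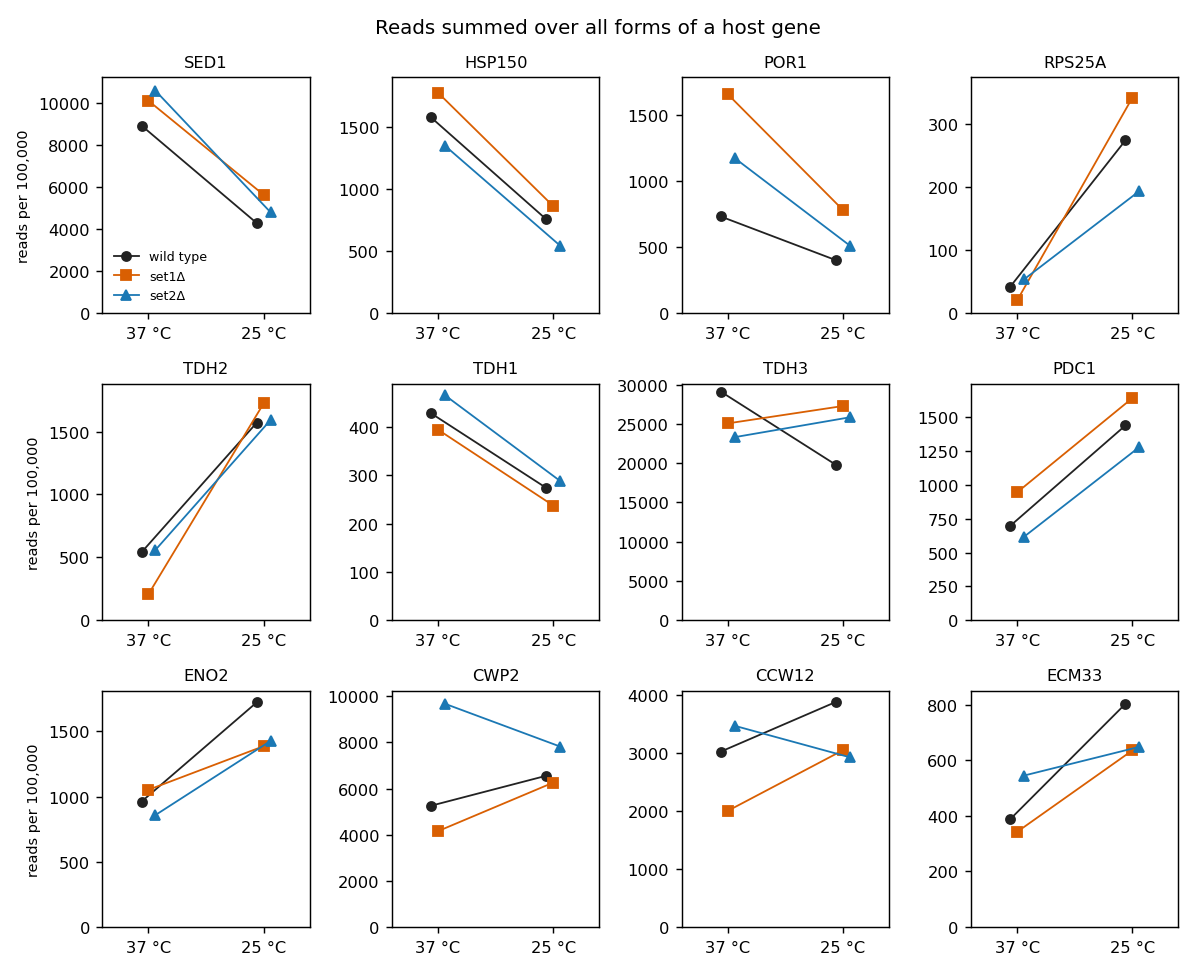
Reads per 100,000 reads on hosts other than SCR1 (vertical axes, linear from 0), summed over all forms of a host, at 37 °C and 25 °C for the 5 hosts that passed the test (SED1, HSP150, POR1, RPS25A and TDH2) and 7 further hosts that did not. Points are single libraries and lines join a genotype. SED1, HSP150 and POR1 are higher at 37 °C and RPS25A and TDH2 lower at 37 °C in all 3 genotypes, while TDH3, CWP2 and CCW12 run in different directions.

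Cell wall proteins had 12 tested hosts, of which 2 rose (SED1 and HSP150), 0 fell and 10 did not pass. The median log2 fold change of the 12 hosts was −0.22, beside −0.14 over all 97 hosts, of which 3.09% rose and 2.06% fell. CWP2, a mannoprotein, had 5255, 4153 and 9675 reads per 100,000 at 37 °C, against 6555, 6258 and 7820 at 25 °C, and CCW12, a structural wall protein, had 3027, 2003 and 3474 at 37 °C, against 3886, 3050 and 2930 at 25 °C. For both, set2Δ alone was higher at 37 °C. PIR1, the other tested PIR protein beside HSP150, had 264, 555 and 371 at 37 °C, against 502, 299 and 396 at 25 °C, and set1Δ alone was higher at 37 °C. By forms, 68 of 91 tested forms of the list had a positive fold change, beside 113 of 240 over all forms on hosts other than SCR1, and most of the 68 were the forms of SED1 and HSP150 given above. Of the 91 forms, 2 rose (both of SED1) and 1 fell (SCW10), beside 1.02% and 1.27% of all 393 tested forms.

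Enzymes of glycolysis and fermentation had 11 tested hosts, of which 0 rose and 1 (TDH2) fell. Their median log2 fold change was −0.17, beside −0.14 over all 97 hosts, of which 2.06% fell, and 12 of their 60 tested forms had a positive fold change, beside 113 of 240 over all forms on hosts other than SCR1. PDC1, pyruvate decarboxylase, had 698, 946 and 617 reads per 100,000 at 37 °C, against 1441, 1643 and 1280 at 25 °C, without overlap but just short of the threshold (log2 fold change −0.96 ± 0.21, adjusted p = 0.0512, edgeR). ENO2, enolase, had 961, 1052 and 858 at 37 °C, against 1722, 1386 and 1426 at 25 °C, again without overlap (log2 fold change −0.66 ± 0.22, adjusted p = 0.130). None of the 17 tested forms of ENO2 and none of the 5 of PDC1 had a positive fold change.

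The heat shock and general stress list held 60 genes, of which 27 had a read and 4 hosts were tested. None passed in either direction, beside 5 of all 97 hosts, and the median log2 fold change was 0.41. SSB2, a ribosome-bound Hsp70 and the tested member with the most reads, had 194, 404 and 177 reads per 100,000 at 37 °C, against 167, 320 and 252 at 25 °C. Its paralog SSB1 had 126, 177 and 105 at 37 °C, against 119, 218 and 119 at 25 °C. DDR48, a DNA damage and heat-induced gene, had 295, 98.7 and 279 at 37 °C, against 79.4, 184 and 112 at 25 °C, with set1Δ alone lower at 37 °C (log2 fold change 0.80 ± 0.59, adjusted p = 0.449, edgeR). HSC82, an Hsp90 chaperone, had 29, 31 and 19 reads at 37 °C, against 1, 13 and 16 reads at 25 °C (log2 fold change 1.65 ± 0.76, adjusted p = 0.218, edgeR). Too few reads for the test fell on SSE1, an Hsp110 chaperone, with 7, 14 and 10 reads at 37 °C, against 3, 1 and 3 at 25 °C, and on UBI4, polyubiquitin, with 8, 5 and 9 reads at 37 °C, against 1, 3 and 0 at 25 °C. SSA1, an Hsp70 with a near-identical copy in SSA2, had 10, 8 and 5 reads at 37 °C, against 0, 2 and 0 at 25 °C. SSA2 itself had 18, 3 and 4 reads at 37 °C, against 1, 5 and 1 at 25 °C, lower at 37 °C in set1Δ. HSP82 had 7, 13 and 2 reads at 37 °C, against 0, 5 and 3 at 25 °C, lower at 37 °C in set2Δ. HSC82, SSE1, UBI4 and SSA1 were chosen after their values were seen, and in each of them every library at 37 °C exceeded every library at 25 °C. The list's share of reads on coding hosts was 1.09%, 1.14% and 0.951% at 37 °C, against 0.594%, 1.08% and 0.794% at 25 °C, an average log2 ratio of 0.41 with an SD of 0.42 over the 3 pairs.

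Ribosomal protein genes took 3.66%, 3.55% and 3.63% of reads on coding hosts at 37 °C, against 4.14%, 5.81% and 4.71% at 25 °C. This share of coding hosts was lower at 37 °C in each genotype, by an average log2 ratio of −0.42 with an SD of 0.27 over the 3 pairs. The direction depended on the base. Per 100,000 reads on hosts other than SCR1, large-subunit genes had 1970, 2027 and 1869 at 37 °C, against 1639, 2718 and 1715 at 25 °C, with set1Δ alone lower. Small-subunit genes had 919, 573 and 993 at 37 °C, against 1042, 1603 and 1546 at 25 °C, lower in every genotype. Of 15 tested hosts of the large subunit 0 passed (median log2 fold change −0.34), and of 7 of the small subunit 1, RPS25A, fell and 0 rose (median −0.46). Over all 97 hosts, 3.09% rose and 2.06% fell. The most-read host of the large subunit was RPL3, with 707, 491 and 661 reads per 100,000 at 37 °C, against 474, 907 and 652 at 25 °C (log2 fold change −0.10 ± 0.33, adjusted p = 0.895, edgeR), where set1Δ alone was lower at 37 °C. That of the small subunit was RPS22B, with 236, 130 and 320 at 37 °C, against 329, 435 and 704 at 25 °C, lower in every genotype (log2 fold change −1.11 ± 0.33, adjusted p = 0.112, edgeR). RPL4A, chosen after its values were seen, had 97.0, 81.9 and 76.8 reads per 100,000 at 37 °C, against 179, 174 and 137 at 25 °C, which did not pass (adjusted p = 0.146, edgeR). RPL30, with the exonic skip described above, was on the other side with a log2 fold change of 2.05.

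Translation factors showed no call in 6 tested hosts, beside 5 of all 97 hosts, with a median log2 fold change of 0.04. YEF3, elongation factor 3, had 597, 1160 and 632 reads per 100,000 at 37 °C, against 816, 1009 and 669 at 25 °C. Genes with an annotated intron other than ribosomal protein genes had 11 tested hosts, none called, with a median of 0.43. The most-read of them was HAC1, the transcription factor of the unfolded protein response, whose intron is removed by Ire1 and not by the spliceosome. It had 2778, 1035 and 3141 reads per 100,000 at 37 °C, against 2086, 1070 and 1650 at 25 °C (log2 fold change 0.43 ± 0.25, adjusted p = 0.332), mostly on a 68-nt skip at chrVI:75897-75964 within the annotated intron.

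Small nuclear and nucleolar RNAs had 9 tested hosts. None passed, and all 9 had a negative log2 fold change (median −1.19), as had all 24 of their tested forms, 2 of which fell (SNR34 and SNR37). Over all 97 hosts, 43 had a positive log2 fold change and the median was −0.14. Of all 393 forms tested, 146 had a positive log2 fold change and 1.27% fell. SNR17A, the U3 RNA of ribosomal RNA processing, carried most of these reads, with 19754, 24385 and 19933 per 100,000 at 37 °C, against 31197, 23873 and 28701 at 25 °C. For SNR17A, SNR30 and SNR190, set1Δ alone was higher at 37 °C. SNR30 had 901, 1817 and 681 at 37 °C, against 2836, 1007 and 1098 at 25 °C. SNR190 had 43.9, 140 and 76.8 at 37 °C, against 252, 86.9 and 142 at 25 °C. SNR8 had 36.6, 37.2 and 35.8 at 37 °C, against 167, 67.8 and 110 at 25 °C (log2 fold change −1.56 ± 0.46, adjusted p = 0.112, edgeR), and SNR46 had 38.5, 22.3 and 38.4 at 37 °C, against 119, 65.7 and 96.7 at 25 °C (log2 fold change −1.50 ± 0.43, adjusted p = 0.112). Noncoding hosts together took 21.02%, 26.7% and 21.1% of reads on hosts other than SCR1 at 37 °C, against 35.1%, 25.6% and 30.7% at 25 °C, an average log2 ratio of −0.41 with an SD of 0.42 over the 3 pairs (exact sign-flip p = 0.5). The set1Δ pair differed in the other direction.

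Most forms lacked GT-AG ends. Such forms numbered 3029 with a read, skipped a median of 63 nt, beside 152 nt for GT-AG forms, and held 96.6%, 97.9% and 96.7% of reads on hosts other than SCR1 at 37 °C, against 97.4%, 96.9% and 97.2% at 25 °C. Of their reads, 85.3%, 86.1% and 84.2% at 37 °C, against 87.5%, 86.9% and 88.6% at 25 °C, lay on skips under 50 nt. Skips flanked by a direct repeat of at least 4 bases held 34.2%, 38.5% and 39.2% of their reads at 37 °C, against 44.5%, 39.4% and 43.9% at 25 °C. The number of distinct forms expected in 39060 reads, the size of the smallest library, was 1549, 1335 and 1506 at 37 °C, against 1193, 1405 and 1256 at 25 °C. It was higher at 37 °C in wild type and set2Δ and lower in set1Δ, with an average log2 ratio of 0.19 and an SD of 0.23 over the 3 pairs (exact sign-flip p = 0.5).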

How the data were processed

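Per the labels' protocols, total RNA from hot phenol extraction was cleared of DNA and ribosomal RNA and made into TruSeq libraries. The submitters' processing notes name CASAVA, STAR 2.4.0 and the sacCer3 build, without their roles. The authors deposited raw counts of reads per form, per the file headers, and a p-value per form whose test is not given in the sources used here; that deposited p-value served only to check the build (of 1112 forms with a value under 1, 729 had GT-AG ends in R64 and at most 26 at shifts of up to 20 nt). Totals of listed reads were 214055 to 367858 at 37 °C and 223996 to 402886 at 25 °C; sequencing depth is unknown, and intervals cover counting error only. 0 per-sample columns were left unmapped. Hosts of 6101 forms matched the annotation, which held 281 coding introns; forms without a host (29, with 0.00378% of reads) were left out. Forms and hosts were kept by filterByExpr and tested in edgeR 4.0.16 (R 4.3.3) by quasi-likelihood on genotype plus temperature, with library size set to reads on named hosts other than SCR1, no scaling factor and Benjamini-Hochberg adjustment at 0.05; SE was computed from the F statistic and the log2 fold change. On simulated counts, 200 of 393 forms and 40 of 97 hosts were changed by a log2 of 2. Of these, 95.0% of the forms and 100% of the hosts were recovered, with 1 false call each. The simulation gave every feature the same spread, no difference between genotypes and many changed features. It checked the code, and its rates do not carry over to these data. Pairs share a genotype, hence the genotype block. Alternatives were DESeq2 1.42.0, other scalings, filters and left-out pairs. Named were called forms and hosts that moved alike in 3 pairs, called GT-AG forms, the 12 most-read GT-AG forms with TACTAAC, called list members and the most-read member per list; other named forms were chosen after their values were seen. Members and lists were chosen with earlier results of these data known.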

Additional observations from a re-analysis of the deposited data

Results flagged for a closer look

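The share of reads on noncoding hosts other than SCR1 moved in opposite directions between genotypes. The log2 ratio of 37 °C over 25 °C was −0.74 in wild type and −0.54 in set2Δ, but 0.0614 in set1Δ. As a share of reads on coding hosts, cell wall hosts also split, at −0.0833 for wild type against 0.17 for set1Δ and 0.41 for set2Δ. This split depended on the base. Relative to all reads on hosts other than SCR1, the scale used for levels, cell wall hosts were higher at 37 °C in every genotype. The values were 20014.3, 19262.5 and 26659 at 37 °C, against 17405.5, 17437.2 and 17644 at 25 °C, for wild type, set1Δ and set2Δ. Of these, SED1 alone had 8906, 10084 and 10563 at 37 °C, against 4278, 5620 and 4791 at 25 °C. Without SED1, the cell wall hosts together were lower at 37 °C in wild type and set1Δ and higher in set2Δ. With 1 library per genotype and temperature the difference between genotypes was not tested, and the set1Δ and set2Δ libraries also carried reads of genes specific to MATα cells.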

How the results depend on the processing

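Of the 9 forms called, 1 was called with TMM factors and 0 with library sizes that include SCR1 (33 had an unadjusted p under 0.05; DESeq2 called 10, 7 higher and 3 lower, sharing 3 with the 9 and giving no adjusted p for 92). Without a filter 4 were called, 3 of them among the 9, and with SCR1 left out of the fit 20, 8 of them among the 9. Added after the data were seen, TMM factors with SCR1 left out gave 31 (14 higher and 17 lower, 9 of them among the 9). Rows at the same position summed gave 7, all 7 among the 9. Leaving out a genotype pair gave 4 to 12 forms (6 without wild type, 12 without set1Δ, 4 without set2Δ). Of these only 4, 4 and 3, in the same order, were among the 9. Against the 5 hosts called, library sizes that include SCR1 gave 0 (9 had an unadjusted p under 0.05). DESeq2 called 6 hosts, 5 of them among the 5, and no filter gave 3, 2 of them among the 5. Leaving out a pair gave 0 to 2 (0 without wild type, 0 without set1Δ, 2 without set2Δ, these 2 among the 5). No replicate block, that is, without the pairing by genotype, gave 14 forms, 8 of them among the 9, and 3 hosts, all among the 5. TMM factors moved the median log2 fold change of all forms tested to −0.05, against −0.17 without them.

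Among shares, the mean log2 difference of ribosomal protein hosts was −0.80 without forms under 50 nt, against −0.42 with all forms. Cell wall hosts gave 0.45 without the 10 most-read forms and 0.47 without forms under 50 nt, against 0.16 with all forms. Glycolytic hosts gave −0.62 and −0.66 in the same order, against −0.16 with all forms. Leaving out a pair gave −0.26 to 0.0597 for GT-AG forms (0.0597 without set1Δ), 0.89 to 1.36 for downstream and −0.47 to −0.17 for upstream 3′ sites, −0.54 to −0.28 for ribosomal protein hosts, −0.64 to −0.24 for noncoding hosts, 0.04 to 0.29 for cell wall, −0.24 to −0.05 for glycolytic and 0.17 to 0.57 for heat shock hosts, and 0.09 to 0.32 for distinct forms. The 365-nt APE2 form changed sign, with 0.12 under TMM factors, 0.11 with all reads, 0.14 under DESeq2 and −0.39 to 0.43 without a pair (0.43 without set1Δ). So did URA2 (−0.14 without wild type to 1.67 without set1Δ), the 550-nt RPS22B form (−1.27 without wild type to 0.69 without set1Δ) and SEC14 (−0.65 without wild type to 1.38 without set1Δ). Over all named forms and hosts, 150 values under other settings kept direction and side of the threshold, 70 lost the call, 5 gained it and 7 reversed. The causes were not tested.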
